A study of Mus musculus with 8 samples.

Results

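The sirtuins are the family of 7 genes, Sirt1 to Sirt7, whose symbols name them among the 35949 genes of the deposited count table for mouse gastrocnemius muscle. All 7 had a row and all 7 passed the filter on low counts, out of 14064 genes tested. A gene is a member by its symbol, whatever its values. Sirtuins remove acetyl and other acyl groups from lysines and consume NAD+ in each reaction, so their activity follows the supply of that cofactor. SIRT1, SIRT6 and SIRT7 work mainly in the nucleus, SIRT2 mainly in the cytosol, and SIRT3, SIRT4 and SIRT5 in mitochondria. In skeletal muscle the family is known for its links to oxidative metabolism and to the response to fasting and exercise, and SIRT3 is the main deacetylase of mitochondrial proteins.

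The muscle was taken from aged mice that had been given a transplant of blood-forming stem cells. Per the series' design text the transplanted cells either overexpressed SIRT3 or were control cells. The labels call the groups T3TG (n = 4) and WT (n = 4), which are read here as the SIRT3 arm and the control arm. Sample titles begin with T3 in T3TG and with Mx1 in WT, and what these prefixes stand for, such as a genotype or a driver line that the WT animals or donors carried, is not explained in the labels. The age, the sex, the strain, the promoter of a transgene and the share of blood cells of donor origin were not found in the sources used here. The muscle cells belong to the recipients in both groups, so the tissue is expected to hold donor genotype only in its blood-derived cells. Whether a transgene transcript would be counted in the Sirt3 row is not given either. The labels do not tie libraries to animals, so p-values measure only the spread between these libraries, which may be partly technical.

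PolyA libraries gave 16.8 to 28.1 M counts in T3TG and 16.2 to 21.5 M counts in WT. Nearly all counts in T3TG replicates 2 and 3 are even numbers (97.5% and 98.0% of values from 10 to 99, against 50.5% to 52.5% in the 6 other libraries), and of the 14 sirtuin counts in those libraries 12 were even. What made them even was not tested. For each sirtuin the estimate from the 6 other libraries, called the 6 libraries in what follows, is given beside that from all 8, and for other genes and lists where it differs by over 1.5 times or in sign. Levels are CPM, a library's counts for a gene scaled to a common library size with TMM factors. The 14 skeletal muscle fibre markers summed to 125900 to 157400 CPM in T3TG and 143900 to 155400 CPM in WT, and none of them was at 0 in any library.

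The genes lie on 5 chromosomes (mm10, 1-based). Sirt3 runs from 140863663 to 140882309 on the minus strand of chromosome 7, and Sirt2 from 28766752 to 28788665 on its plus strand. Sirt1 (63319005 to 63339035) and Sirt6 (81621787 to 81627792) are both on the minus strand of chromosome 10. Sirt4 is at 115478006 to 115490264 on chromosome 5 (minus strand), Sirt5 at 43365389 to 43395203 on chromosome 13 (plus strand) and Sirt7 at 120618371 to 120625014 on chromosome 11 (minus strand). The start region of Sirt3 is shown first because it is the gene the study overexpressed in the transplanted cells, and because it is shared with another gene. Psmd13, which encodes a proteasome lid subunit, starts 85 bases from Sirt3 in the opposite direction. The windows of Sirt1 and Sirt6 are shown because they hold the E-box and NRF1 matches of the family. Each window runs from 250 bases before an annotated start to the 50 bases from it onward, 5′ to 3′ on the gene's strand (RefSeq, GRCm38.p6). For Sirt4, Sirt5 and Sirt6 that start lies inside the gene span given above, and so does the NRF1 match of Sirt6. Sirt3 and Sirt6 have 2 annotated windows each, and the outermost is used. Matches to the E-box CACGTG, the ETS-type motif CCGGAAG or the NRF1 motif, on either strand, are in capitals.
Sirt3 (chr7:140882260-140882559, minus strand): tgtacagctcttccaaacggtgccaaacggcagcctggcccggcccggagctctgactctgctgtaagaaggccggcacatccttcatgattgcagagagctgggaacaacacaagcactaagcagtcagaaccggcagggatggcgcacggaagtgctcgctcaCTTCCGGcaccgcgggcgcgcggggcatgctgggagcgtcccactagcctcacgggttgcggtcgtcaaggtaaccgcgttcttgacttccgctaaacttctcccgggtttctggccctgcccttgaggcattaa
Sirt1 (chr10:63338986-63339285, minus strand): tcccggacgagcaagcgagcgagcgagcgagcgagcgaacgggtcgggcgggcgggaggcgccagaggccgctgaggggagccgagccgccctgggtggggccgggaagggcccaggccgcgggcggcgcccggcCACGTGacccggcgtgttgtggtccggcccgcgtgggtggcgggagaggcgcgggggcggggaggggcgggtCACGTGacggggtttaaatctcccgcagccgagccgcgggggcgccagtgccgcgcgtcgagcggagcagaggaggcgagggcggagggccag
Sirt6 (chr10:81627517-81627816, minus strand): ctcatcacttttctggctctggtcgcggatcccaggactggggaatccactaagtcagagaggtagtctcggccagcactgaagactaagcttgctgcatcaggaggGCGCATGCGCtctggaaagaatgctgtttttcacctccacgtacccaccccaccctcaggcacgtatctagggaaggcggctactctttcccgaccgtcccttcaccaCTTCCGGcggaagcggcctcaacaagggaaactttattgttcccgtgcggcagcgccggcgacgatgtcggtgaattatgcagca

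The 7 start windows were rich in CG pairs, and none held the letters TATAAA, which 13.6% of all 32851 windows in the table hold. The ratio of observed to expected CG pairs was between 0.52 (Sirt5) and 1.09 (Sirt1), against a median of 0.384 over all windows. GC content was highest in Sirt1 (79.0%), against a median of 52.7%. An ETS-type match was found in Sirt3, Sirt6 and Sirt7 (8.86% of all windows), an E-box at 2 places in Sirt1 alone (7.15%) and an NRF1 match in Sirt6 alone (4.60%). No window held the cAMP response element TGACGTCA (1.79%). The GC box GGGCGG was found in 4 members (35.7% of all windows) and the CCAAT box in 2 (37.4%). No match of the kinds searched overlapped a match of another kind in the printed windows. In Sirt3 the ETS-type match lies 85 to 79 bases before the start, so that its first base is the annotated start of Psmd13. Sirt3 has a second annotated start 440 bases further into the gene, and counts per gene cannot tell transcripts of the 2 starts apart.

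None of the 7 sirtuin genes passed the test between T3TG and WT muscle. With edgeR's quasi-likelihood test and Benjamini-Hochberg adjustment over all genes 0 of 7 passed 0.05, against 10 of 14064 genes (0.0711%, all of them higher in T3TG). At an unadjusted p under 0.05 it was again 0 of 7, against 8.33% of all genes, and 0 of 7 passed with DESeq2 or with voom and sample weights. DESeq2 called 0.747% of all genes, 0.704% as higher and 0.0427% as lower in T3TG, with 8.53% at an unadjusted p under 0.05, and voom called 0.0142%. In the 6 libraries without even counts edgeR called 0 of 7 sirtuins and 0 of 14507 genes, with 0 of 7 and 5.35% at an unadjusted p under 0.05. The estimates were positive for 3 members and negative for 4, with a median log2 fold change of -0.04, beside a median of -0.0043 over all genes, of which 6901 had a positive value. With library totals in place of TMM factors the split was 4 positive and 3 negative, and the median was -0.0078 in the 6 libraries and 0.02 without WT replicate 1. In all 7 the ranges of the groups overlapped, as they did in all but 4.78% of the genes tested. In bulk muscle fewer cells of a type and less RNA per cell cannot be told apart.

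**Figure D1:**
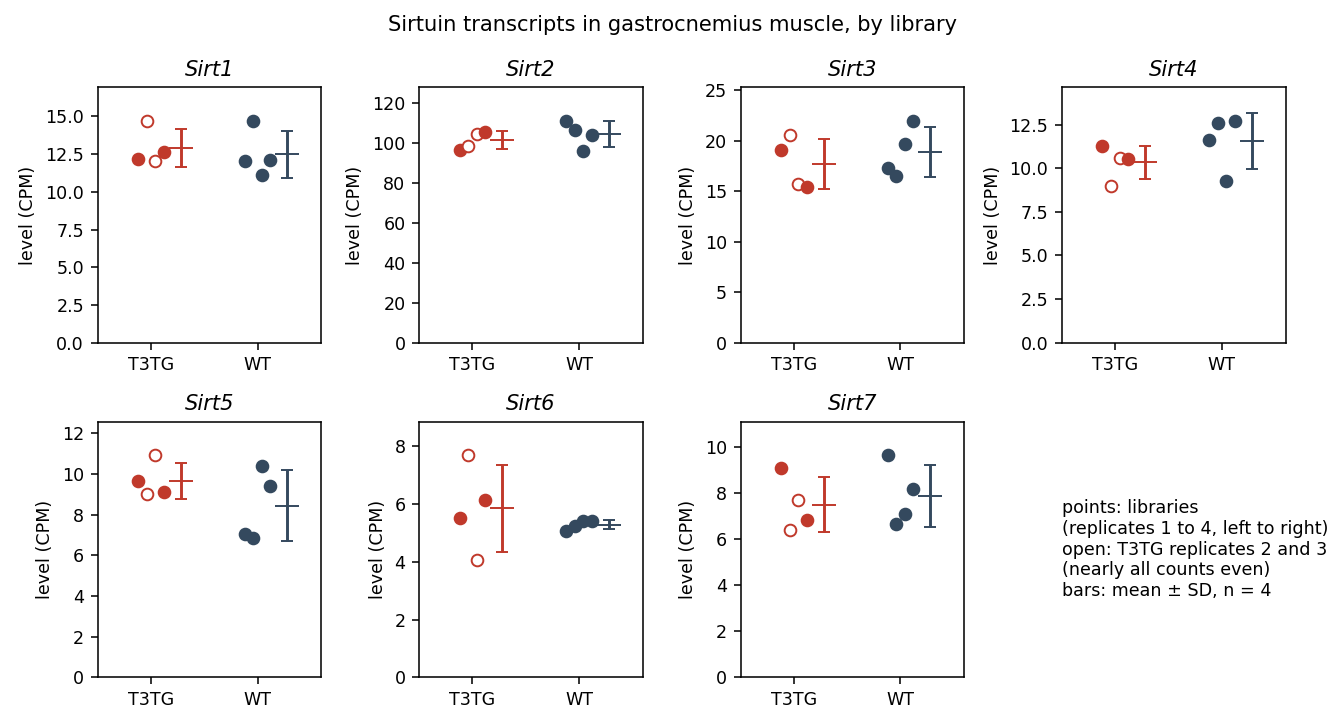
Level of each sirtuin transcript in CPM (y axis, from 0) in the 4 T3TG and the 4 WT libraries (x axis), one panel per gene, with points for libraries and bars for the mean ± SD. The groups overlap in every panel, and Sirt6 shows a wide T3TG group (4.07 to 7.70 CPM) beside a narrow WT group (5.08 to 5.43 CPM).

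Sirt3, the mitochondrial deacetylase that the transplanted cells overexpressed, was measured at 19.1, 20.5, 15.8 and 15.5 CPM in T3TG replicates 1 to 4, and at 17.3, 16.5, 19.7 and 21.99 CPM in WT replicates 1 to 4. The highest library was WT replicate 4 and the lowest T3TG replicate 4, and each group had libraries on both sides of 18 CPM. The log2 fold change was -0.09 (SE 0.13, edgeR adjusted p = 0.881), with a 95% interval from -0.36 to 0.18. The interval spans T3TG levels of 0.777 to 1.13 times the WT level, so the data limit a change in whole muscle to about that range and do not show that there is none. In the 6 libraries the log2 fold change was -0.13 (95% interval -0.45 to 0.20).

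Sirt4, which is known to restrain glutamate dehydrogenase and malonyl-CoA decarboxylase, had 11.3, 9.01, 10.6 and 10.5 CPM in T3TG replicates 1 to 4 and 11.6, 12.6, 9.28 and 12.7 CPM in WT replicates 1 to 4. Of the WT libraries 3 stood above every T3TG library, and WT replicate 3 stood among the lowest. Its log2 fold change was -0.16 (SE 0.14, 95% interval -0.46 to 0.13, edgeR adjusted p = 0.803), and -0.09 in the 6 libraries.

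Sirt5, the desuccinylase and demalonylase of mitochondria, had the largest positive estimate of the family. It was at 9.65, 9.01, 10.9 and 9.11 CPM in T3TG replicates 1 to 4 and at 7.05, 6.88, 10.4 and 9.41 CPM in WT replicates 1 to 4. WT replicates 1 and 2 lay below all T3TG libraries, and WT replicates 3 and 4 lay among them. The log2 fold change was 0.20 (SE 0.16, 95% interval -0.14 to 0.54, edgeR adjusted p = 0.780), and 0.15 in the 6 libraries.

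Among the nuclear members, Sirt1, the deacetylase of PGC-1alpha, p53 and FOXO factors, had 12.2, 14.7, 12.1 and 12.7 CPM in T3TG replicates 1 to 4 and 12.02, 14.7, 11.1 and 12.1 CPM in WT replicates 1 to 4. In each group replicate 2 stood apart at 14.7 CPM, while all remaining libraries lay between 11.1 and 12.7 CPM. The log2 fold change of Sirt1 was 0.05 (SE 0.13, 95% interval -0.23 to 0.32, edgeR adjusted p = 0.954). In the 6 libraries it was -0.0078, so its direction was set by which libraries were used.

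Sirt6, a chromatin deacylase with roles in DNA repair and in glycolytic gene control, spread more in T3TG than in WT. It had 5.53, 7.70, 4.07 and 6.16 CPM in T3TG replicates 1 to 4 and 5.08, 5.25, 5.43 and 5.42 CPM in WT replicates 1 to 4. Its highest and its lowest library were T3TG replicates 2 and 3, the libraries with even counts. The coefficient of variation was 25.7% in T3TG and 3.13% in WT. The counts behind it were the lowest of the family, with 86 to 114 in the WT libraries, where counting alone gives a coefficient of variation of 9.37% to 10.8%. The WT spread was below that counting error, and the difference in spread was not tested. The log2 fold change was 0.14 (SE 0.20, 95% interval -0.28 to 0.55, edgeR adjusted p = 0.889), and 0.14 in the 6 libraries.

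Sirt7, which is enriched in the nucleolus and acts on transcription of ribosomal RNA genes, had 9.09, 6.39, 7.70 and 6.82 CPM in T3TG replicates 1 to 4 and 9.65, 6.64, 7.07 and 8.17 CPM in WT replicates 1 to 4. Both groups held 1 library above 9 CPM and 1 below 6.7 CPM. The log2 fold change was -0.07 (SE 0.17, 95% interval -0.43 to 0.29, edgeR adjusted p = 0.944), and 0.02 in the 6 libraries.

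Sirt2, the cytosolic tubulin deacetylase, was the member measured most precisely. It had 96.6, 98.4, 104.6 and 105.4 CPM in T3TG replicates 1 to 4 and 111.1, 106.3, 95.7 and 104.1 CPM in WT replicates 1 to 4. The groups were mixed in rank, although the 2 highest libraries and the lowest were WT, with a coefficient of variation of 4.36% in T3TG and 6.18% in WT. In the 6 libraries, with 1515 to 2192 counts each, counting alone gives 2.14% to 2.57%. The log2 fold change was -0.04 (SE 0.08, edgeR adjusted p = 0.928), and its 95% interval, -0.21 to 0.12, was the narrowest of the 7. It spans T3TG levels of 0.866 to 1.09 times the WT level. In the 6 libraries the log2 fold change was -0.05.

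**Figure D2:**
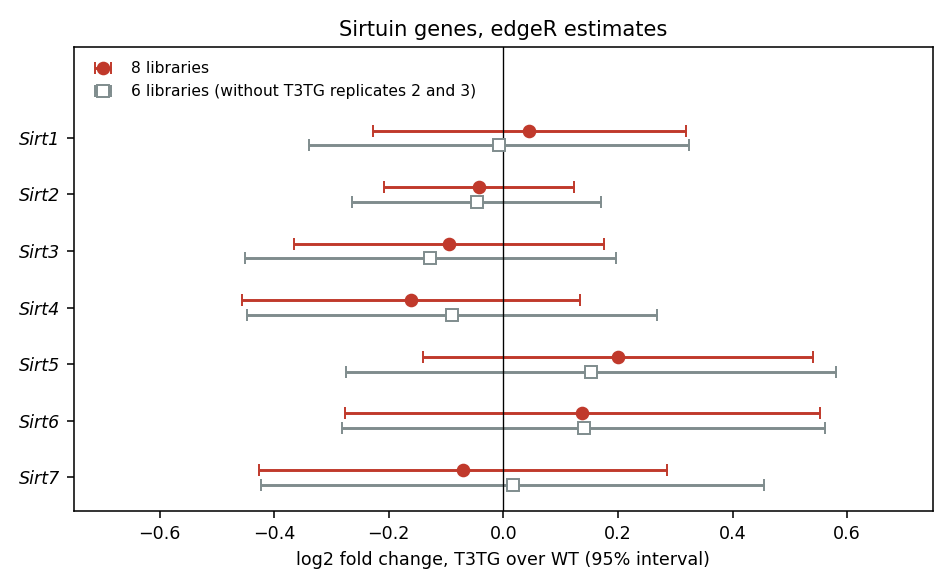
Log2 fold change of each sirtuin gene, T3TG over WT (x axis), with 95% intervals from edgeR, from all 8 libraries and from the 6 libraries without T3TG replicates 2 and 3. Every interval crosses 0, the narrowest is that of Sirt2 (-0.21 to 0.12) and the widest with 8 libraries is that of Sirt6 (-0.28 to 0.55).

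Compared per exon length, Sirt2 was the most abundant sirtuin transcript of the muscle. Lengths were the merged exons of the GENCODE M21 basic transcripts, since the authors' annotation is not given in the sources used here. Sirt2 had 44.9 ± 1.96 CPM per kb in T3TG and 46.3 ± 2.86 CPM per kb in WT (SD, n = 4 each), which is 61.4% and 61.5% of the summed level of the 7 genes. Sirt3 followed with 10.3 ± 1.45 CPM per kb in T3TG and 10.9 ± 1.44 CPM per kb in WT, 14.0% and 14.6% of the sum. Neither range met that of the next gene in any of the 8 libraries. Sirt4 had 5.07 ± 0.464 CPM per kb in T3TG and 5.67 ± 0.784 CPM per kb in WT, and Sirt7 had 4.16 ± 0.662 CPM per kb in T3TG and 4.37 ± 0.744 CPM per kb in WT. Their ranges overlapped, although Sirt4 stood above Sirt7 within each of the 8 libraries. Sirt5 and Sirt1 could not be ordered, since Sirt5 was the higher of the pair in 5 of 8 libraries. Sirt5 had 3.28 ± 0.300 CPM per kb in T3TG and 2.86 ± 0.594 CPM per kb in WT, and Sirt1 had 2.91 ± 0.278 CPM per kb in T3TG and 2.82 ± 0.351 CPM per kb in WT. Sirt6 was the lowest, with 2.52 ± 0.648 CPM per kb in T3TG and 2.28 ± 0.0712 CPM per kb in WT, below Sirt1 in each library but with overlapping ranges. The sum over the family was 73.1 ± 0.180 CPM per kb in T3TG and 75.2 ± 3.38 CPM per kb in WT.

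**Figure D3:**
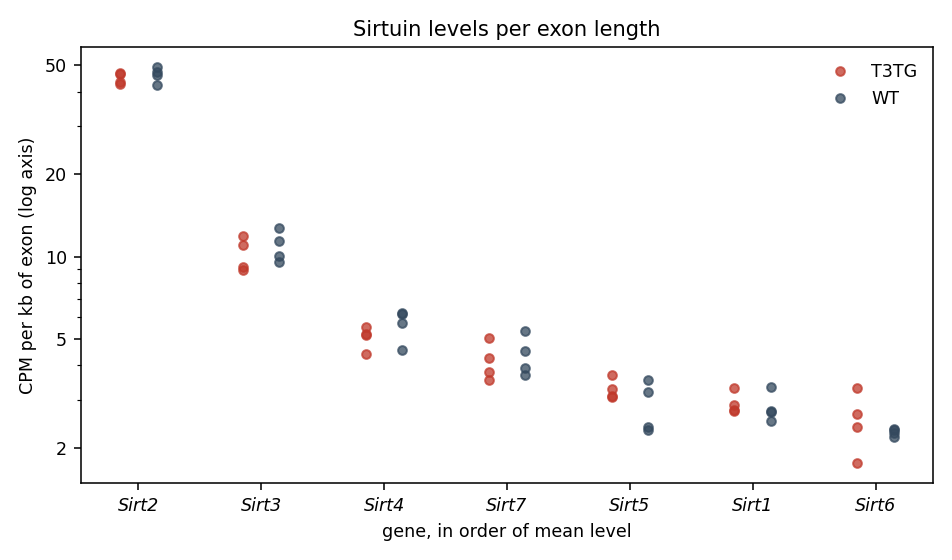
Level of each sirtuin gene in CPM per kb of merged exon (y axis, log scale), with a point for each T3TG library and each WT library, and genes ordered by mean level (x axis). Sirt2 (42.4 to 49.3 CPM per kb) and Sirt3 (8.96 to 12.8 CPM per kb) stand clear of the other 5 genes, whose ranges adjoin or overlap.

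This order depended on the annotation below Sirt2. With the exons of all annotated transcripts, retained introns included, the merged length of Sirt3 was 5973 in place of 1724 bases. Sirt4 (4.82 ± 0.667 CPM per kb in WT) then ranked above Sirt3 (3.16 ± 0.417 CPM per kb in WT), and Sirt5 was the lowest by its WT mean (1.39 ± 0.288 CPM per kb) while Sirt2 remained the highest at 20.7 ± 1.28 CPM per kb in WT. These lengths were tried after the data were seen.

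The members did not all move in the same direction in any library. In T3TG replicates 1, 2, 3 and 4, 4, 4, 2 and 4 of the 7 genes stood above their own WT mean on the log2 scale, and 3, 3, 3 and 5 did in WT replicates 1 to 4. The root mean square difference between the centred log2 profiles of a pair of members, over the 8 libraries, was smallest for Sirt2 with Sirt4 (0.14) and largest for Sirt6 with Sirt7 (0.38). This difference also holds the size of each gene's own spread, so it does not show whether a pair moved together. For Sirt3 the 6 other members gave 0.22 (Sirt2) to 0.26 (Sirt4), which is more than the spread of Sirt3 around its own mean (0.17). The genes whose profiles came closest to Sirt3 among all genes tested were Rbm10, a splicing regulator (0.077), Rbm48 (0.079) and Kif1bp, a kinesin-binding protein (0.080). The closest to the other members were Ppp2r5e for Sirt1 (0.062), Epb41 for Sirt2 (0.033), Stx16 for Sirt4 (0.062), Fastkd5 for Sirt5 (0.070), Alkbh4 for Sirt6 (0.080) and Gm15446 for Sirt7 (0.087). These distances were the smallest among 14064 genes over 8 libraries, and they are given as a description.

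**Figure D4:**
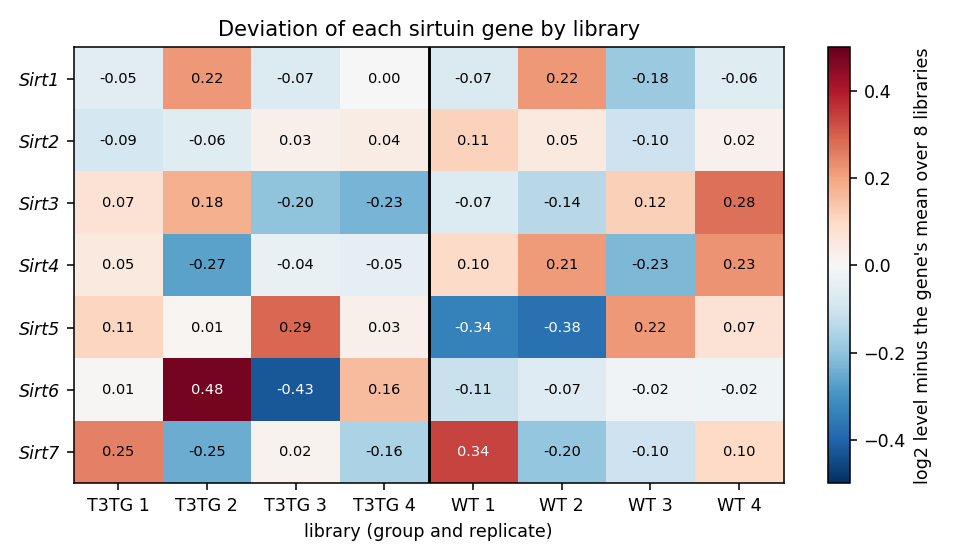
Deviation of each sirtuin gene (rows) in each library (columns, T3TG left of WT) from the mean of that gene over the 8 libraries, in log2 units by colour and printed value. The largest deviations are those of Sirt6 in T3TG replicates 2 (0.48) and 3 (-0.43), and no column is of 1 colour.

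The neighbours of the sirtuin genes were examined because the strand setting of the counting is not given, so reads from overlapping genes can be shared or lost. Psmd13, which starts beside Sirt3, shares 342 exon bases with it (5.73% of the exon bases of Sirt3, all transcripts). Ric8a, a chaperone of G protein subunits at the other end, shares 418 exon bases with Sirt3 (7.0%). Psmd13 had 71.0, 63.0, 71.4 and 70.5 CPM in T3TG replicates 1 to 4 and 70.4, 71.8, 70.2 and 66.8 CPM in WT replicates 1 to 4. Psmd13 was lowest in T3TG replicate 2 and WT replicate 4, the libraries in which Sirt3 was highest in its group. Its log2 fold change was -0.02 (SE 0.08, edgeR adjusted p = 0.974). For Ric8a the value was -0.07 on the log2 scale (SE 0.12, edgeR adjusted p = 0.911). Within T3TG Ric8a was highest in replicate 2 (21.1 CPM), where Sirt3 was highest too, and within WT in replicate 1 (23.3 CPM). Whether reads were shared between these genes was not tested. Cox8b, a subunit of cytochrome c oxidase and the nearest coding gene on the higher coordinate side that does not overlap Sirt3, had 341.8 ± 36.4 CPM in T3TG and 432.8 ± 70.6 CPM in WT (SD, n = 4 each) and did not pass (log2 fold change -0.34, SE 0.12, edgeR adjusted p = 0.418). Of the 12 nearest neighbours tested, of 14, it alone had an unadjusted p under 0.05, against 8.33% of all genes. Cox8b is named for that after its value was seen. None of the 12 passed with edgeR. Overlaps of the other members were below 3% of their exon bases, with Nfkbib for Sirt2 (42 bases), Mafg (124 bases) and the miRNA gene Mir6936 (54 bases) for Sirt7 and the antisense gene Gm16145 for Sirt1 (65 bases), and Sirt4, Sirt5 and Sirt6 overlapped no annotated gene.

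Genes listed under NAD+ synthesis and salvage, not all of which supply NAD+, did not pass either. Of 19 listed, 14 were tested, 8 with a higher and 6 with a lower value in T3TG (median log2 fold change 0.03), and 10 higher and 4 lower with library totals. The median was -0.0008 in the 6 libraries, and lay between -0.0039 (without WT replicate 2) and 0.08 (without WT replicate 3) with 1 library left out. None passed with edgeR, DESeq2 or voom, and 0 had an unadjusted edgeR p under 0.05. Nmrk1, a nicotinamide riboside kinase, came closest with 4.2002 ± 0.400 CPM in T3TG and 5.56 ± 1.14 CPM in WT (log2 fold change -0.40, SE 0.19, edgeR adjusted p = 0.616). Naprt, the first enzyme of the route from nicotinic acid, and Nadk, which makes NADP+, had 0.23 (SE 0.18) and 0.18 (SE 0.11), and Nadk had 0.06 in the 6 libraries. Nnt, the mitochondrial transhydrogenase and the list's member with the highest CPM, had 261.4 ± 9.81 CPM in T3TG and 281.4 ± 51.2 CPM in WT. Nampt, the rate-limiting enzyme of NAD+ salvage, was chosen for its role after its values were seen, and had 148.7 ± 5.38 CPM in T3TG and 144.2 ± 7.70 CPM in WT (log2 fold change 0.04, SE 0.08, edgeR adjusted p = 0.923, and 0.01 in the 6 libraries).

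Other consumers of NAD+ and the enzymes that clear nicotinamide had 7 higher and 10 lower values among 17 tested of 19 listed (median -0.04), and 10 higher and 7 lower with library totals. With 1 library left out the median lay between -0.03 (without T3TG replicate 1) and 0.08 (without WT replicate 2), and it was above 0 in 6 of the 8 such fits. Those 6 fits tested 18 or 19 genes of the list, while the fits without T3TG replicate 1 or 3 tested 17. The part of the added genes in the change of sign was not tested. By edgeR 0 passed and 1 had an unadjusted p under 0.05, against 8.33% of all genes, and DESeq2 and voom called 0. That gene was Aox1, an aldehyde oxidase that acts on methylated nicotinamide, with 24.8 ± 2.24 CPM in T3TG and 29.6 ± 3.98 CPM in WT (log2 fold change -0.26, SE 0.11, edgeR adjusted p = 0.559). The ADP-ribosyltransferase genes Parp8 and Parp14 came to 0.13 (SE 0.10) and 0.20 (SE 0.15) on the log2 scale, and the tankyrase gene Tnks2 had -0.06 (SE 0.09). Parp14 had 0.06 and Tnks2 had 0.02 in the 6 libraries.

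Regulators and partners of sirtuins had 8 higher and 11 lower values among 19 tested of 20 listed (median -0.01), and 10 higher and 9 lower with library totals. With edgeR, DESeq2 or voom 0 passed, and 1 had an unadjusted edgeR p under 0.05, against 8.33% of all genes. It was Bloc1s1 (GCN5L1), a factor described as promoting the acetylation of mitochondrial proteins that SIRT3 removes, with 46.2 ± 5.52 CPM in T3TG and 55.8 ± 5.68 CPM in WT. Its log2 fold change was -0.27 (SE 0.10, edgeR adjusted p = 0.465), and -0.27 in the 6 libraries. Hic1, a repressor of Sirt1 transcription, and the acetyltransferase gene Crebbp had 0.35 (SE 0.21) and 0.15 (SE 0.10), and Prkaa2, the catalytic AMPK subunit of muscle, had -0.01 (SE 0.09). Crebbp had 0.26 and Prkaa2 had 0.03 in the 6 libraries. The median of the list lay between -0.04 (without T3TG replicate 4) and 0.0004 (without WT replicate 2) with 1 library left out, in fits that tested 19 or 20 of its genes.

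Transcripts of mitochondrial proteins described as SIRT3 substrates had small values below 0. Of 27 tested of 28 listed, 25 were lower and 2 higher in T3TG, with a median log2 fold change of -0.06, and with library totals in place of TMM factors 15 were lower and 12 higher (median -0.01). In the 6 libraries 19 were lower and 8 higher (median -0.03), without WT replicate 4 18 were lower and 9 higher (median -0.03), without T3TG replicate 2 20 were lower and 7 higher (median -0.03), and without WT replicate 2 26 were lower and 1 higher (median -0.09). None passed with edgeR, DESeq2 or voom, and 1 had an unadjusted edgeR p under 0.05, against 8.33% of all genes. It was Pdp1, the phosphatase that activates pyruvate dehydrogenase, with 81.8 ± 12.2 CPM in T3TG and 99.8 ± 3.03 CPM in WT and T3TG libraries all below the WT libraries, which 4.78% of all genes matched or mirrored (-0.29 on the log2 scale, SE 0.10, edgeR adjusted p = 0.420). The beta-oxidation genes Hadh and Hadha had -0.12 (SE 0.09) and -0.13 (SE 0.10), and Atp5a1, a subunit of ATP synthase, had -0.07 (SE 0.09), with -0.07 for Hadh and -0.01 for Atp5a1 in the 6 libraries. Sod2 and Idh2, the best-known SIRT3 substrates of antioxidant defence, were chosen for that role after their values were seen and had -0.02 (SE 0.08) and -0.13 (SE 0.16). Sod2 had 0.03 both with library totals and in the 6 libraries, and Idh2 had -0.09 with library totals. The muscle fibre markers had values in the same direction, with 12 of 14 lower (median -0.09; 9 of 14 with library totals and in the 6 libraries, 8 of 14 without T3TG replicate 2 with a median of -0.05) and 0 passed. Those of lowest p, Pvalb, Tnni2 and Mb, had -0.22 (SE 0.11), -0.17 (SE 0.09) and -0.21 (SE 0.13), and Acta1, the list's member with the highest CPM, had -0.01 (SE 0.11). In the 6 libraries Mb had -0.12 and Acta1 had -0.09. The part of the muscle fibre markers in the values of the substrates was not tested.

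The targets of SIRT4 and SIRT5, 5 of them also on the SIRT3 list, had 13 lower and 4 higher values among 17 tested of 19 listed (median -0.06), and 9 lower and 8 higher with library totals. The median was -0.0068 in the 6 libraries (10 lower, 7 higher), -0.014 without WT replicate 4 (11 lower, 6 higher) and -0.017 without T3TG replicate 2 (9 lower, 8 higher). By edgeR, DESeq2 and voom 0 passed and 0 had an unadjusted edgeR p under 0.05. Mlycd, malonyl-CoA decarboxylase, had -0.13 (SE 0.10), and Pkm, the pyruvate kinase of muscle, had 2909 ± 238.5 CPM in T3TG and 2813 ± 98.8 CPM in WT. The log2 fold change of Pkm was 0.05 (SE 0.09), and 0.08 in the 6 libraries. Cps1, a urea cycle enzyme of liver, was near the limit of detection, with 0.441 ± 0.513 CPM in T3TG and 0.881 ± 0.134 CPM in WT (log2 fold change -1.05, SE 0.86, and -0.0005 in the 6 libraries).

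Targets of the nuclear sirtuins, 4 of them also on the list of regulators, had 14 higher and 12 lower values among 26 tested of 27 listed (median 0.01), and 19 higher and 7 lower with library totals. The median was 0.04 in the 6 libraries, and lay between -0.01 (without T3TG replicate 2) and 0.06 (without T3TG replicate 4) with 1 library left out. By edgeR, DESeq2 and voom 0 passed, and 1 higher and 1 lower had an unadjusted edgeR p under 0.05, against 8.33% of all genes. Rela, the NF-kB subunit deacetylated by SIRT1, had 28.2 ± 1.92 CPM in T3TG and 23.9 ± 1.76 CPM in WT (0.24 on the log2 scale, SE 0.09, edgeR adjusted p = 0.501). Every T3TG library was above every WT library, which 4.78% of all genes matched or mirrored. Foxo4 had 130.7 ± 10.6 CPM in T3TG and 154.2 ± 17.3 CPM in WT (-0.24, SE 0.09, edgeR adjusted p = 0.490). Stat3 had a log2 fold change of 0.17 (SE 0.10).

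The 11 zinc-dependent deacetylase genes, the other family of lysine deacetylases, were all tested, with 5 higher and 6 lower values (median -0.03), 0 passed with edgeR, DESeq2 or voom and 0 at an unadjusted edgeR p under 0.05. Hdac3 had -0.15 (SE 0.09), Hdac7 0.20 (SE 0.13) and Hdac5, the list's member with the highest CPM, -0.07 (SE 0.09). The list had 6 higher and 5 lower values (median 0.03) in the 6 libraries, and Hdac5 had 0.05 there. With 1 library left out the median lay between -0.07 (without WT replicate 4) and 0.02 (without WT replicate 1). Hdac2 had 49.5 ± 1.53 CPM in T3TG and 53.2 ± 0.722 CPM in WT (-0.10, SE 0.07, edgeR adjusted p = 0.746). Its groups did not overlap, which 4.78% of all genes matched or mirrored. Genes of the mitochondrial unfolded protein response, which SIRT3 and SIRT7 have been linked to, had 13 lower and 3 higher values among 16 tested (median -0.05), and 8 lower and 8 higher with library totals, with 0 passed by edgeR, DESeq2 or voom and 0 at an unadjusted edgeR p under 0.05. Their transcription factor Atf5 had 0.20 (SE 0.12), the protease subunit Clpx -0.12 (SE 0.07), Grpel1 -0.13 (SE 0.08) and the chaperone Hspa9 -0.04 (SE 0.08). Atf5 had 0.36 in the 6 libraries, and the median of the list was -0.03 without WT replicate 4.

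**Figure D5:**
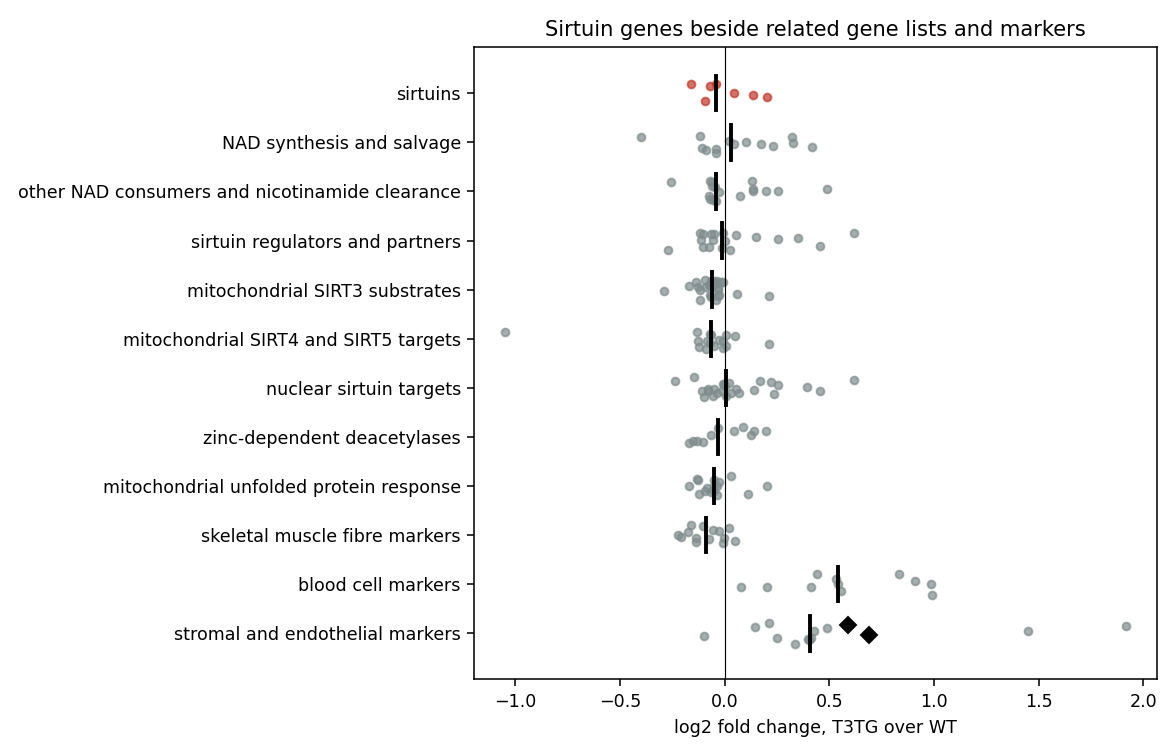
Log2 fold change, T3TG over WT (x axis), of each tested gene (points) in the sirtuin family and in each related list and marker list (rows), with a black bar at the median and black diamonds for genes past the edgeR threshold. The sirtuin genes lie between -0.16 and 0.20, and the diamonds are Col3a1 and Pi16 among the stromal markers.

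Blood cell markers were examined beside Sirt3 because donor genotype is expected in those cells. All 11 tested of 18 listed had higher values in T3TG (median log2 fold change 0.54). In the 6 libraries 7 of 11 were higher, with a median of 0.18, and without T3TG replicate 3 7 of 11 were, with a median of 0.14. With edgeR, DESeq2 or voom 0 passed, and 4 had an unadjusted edgeR p under 0.05, against 8.33% of all genes. Summed without the 2 globin genes, 16 markers gave 54.5, 59.9, 99.01 and 51.6 CPM in T3TG replicates 1 to 4 and 44.6, 56.7, 33.8 and 44.6 CPM in WT replicates 1 to 4. T3TG replicate 3 had the highest sum, and its Sirt3 level of 15.8 CPM was among the lowest. T3TG replicate 2 had the next highest sum and the highest Sirt3 level of T3TG (20.5 CPM). T3TG replicate 4 had the lowest sum of T3TG and the lowest Sirt3 level (15.5 CPM). WT replicate 3 had the lowest sum of all, with Sirt3 at 19.7 CPM. The relation of the sums to Sirt3 was not tested. The macrophage markers had the lowest p of the list. Csf1r, the receptor of the growth factor CSF1, had 27.9 ± 5.91 CPM in T3TG and 19.3 ± 1.93 CPM in WT (0.53 on the log2 scale, SE 0.14, edgeR adjusted p = 0.194), and 0.25 in the 6 libraries. Cd68, a lysosomal protein, had 5.57 ± 1.65 CPM in T3TG and 3.13 ± 0.336 CPM in WT (0.83 on the log2 scale, SE 0.22, edgeR adjusted p = 0.207), and 0.50 in the 6 libraries. For Csf1r and Cd68, and for Adgre1 (F4/80, named after its values were seen), every T3TG library was above every WT library. Groups without overlap, in either direction, were found in 4.78% of all genes tested. Itgam, an integrin of myeloid cells, had a log2 value of 0.91 (SE 0.29, edgeR adjusted p = 0.341), with overlapping groups. The globin gene Hbb-bs had 0.98 (SE 0.81), and -0.46 in the 6 libraries. Ptprc, the pan-leukocyte antigen CD45, had 5.62, 3.76, 10.7 and 3.62 CPM in T3TG replicates 1 to 4 and 3.67, 6.70, 2.65 and 3.37 CPM in WT replicates 1 to 4. The neutrophil marker Ly6g was at 0 counts in 3 of 4 T3TG and in 4 of 4 WT libraries, and the 6 lymphocyte markers of the list were too low to be tested. Stromal and endothelial markers were higher in 13 of 14 (median 0.41), and 10 of 14 had an unadjusted edgeR p under 0.05, against 8.33% of all genes. Both marker lists were chosen with earlier results of these data known, so these shares describe the lists and do not test them. Of the stromal and endothelial markers 2 passed by edgeR (0.0711% of all genes), 5 by DESeq2 (0.747%) and 0 by voom (0.0142%). The 2 were the collagen gene Col3a1, with 147.9 ± 12.5 CPM in T3TG and 91.7 ± 14.6 CPM in WT (0.69 on the log2 scale, SE 0.11, edgeR adjusted p = 0.0409), and Pi16, with 0.59 (SE 0.10, edgeR adjusted p = 0.0409), both higher in T3TG. Col1a1 had 0.49 (SE 0.11) and Dcn, the list's member with the highest CPM, had 0.40 (SE 0.11), and 0.20 in the 6 libraries. Neither Col3a1 nor Pi16 passed in the 6 libraries, where edgeR called 0 of 14507 genes. The part of these cells in the sirtuin values was not tested.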

How the data were processed

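RNA of gastrocnemius muscle was measured in 8 polyA libraries (4 T3TG, 4 WT) sequenced as read pairs on a NovaSeq, per the labels' protocols. The submitters' processing notes list HISAT2 2.2.1, HTSeq 0.9.1, DESeq2 1.34.0 and mm10. The authors deposited raw counts per gene symbol, with no normalization. Of 35976 rows, 27 with a date in place of a symbol (0.0885% to 0.0961% of a library's counts) were left out.

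Low genes were removed by filterByExpr. The quasi-likelihood test in edgeR 4.0.16 (R 4.3.3) compared T3TG with WT on TMM-scaled libraries in a model of group alone, with p-values adjusted by Benjamini-Hochberg over 14064 genes at 0.05. The SE is the log2 fold change over the square root of F, and 95% intervals use the moderated degrees of freedom. Log2 profiles use a prior count of 2. limma 3.58.1 (voom) and DESeq2 1.42.0 on the same filtered genes were alternatives. The fit was tested on simulated counts. Counting error is 1 over the square root of the count and covers counting only. Exon lengths and neighbours come from GENCODE M21, and positions and sequences from RefSeq, matched by symbol for all 7 genes.

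This gene family and the lists beside it were chosen with earlier results of these data known, and membership follows the symbol. The text names the 7 members, the 3 genes of lowest p and the one of highest CPM in each list, the neighbours that overlap a member, and the genes of closest profile, plus genes said to be chosen later. Alternatives were other scalings, filters and tests, a replicate block from the leading title number, a term for title number 6, halved counts or removal of the even-count libraries, and leaving out each library.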

Additional observations from a re-analysis of the deposited data

How the results depend on the processing

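Of the 133 fits of sirtuin genes under 19 alternatives, 0 passed adjusted 0.05 and 0 had an unadjusted p under 0.05, and 124 kept the sign given above. Sirt3, Sirt4 and Sirt5 kept theirs in all 19. Sirt3 lay between -0.18 and -0.014 when 1 library was left out, Sirt4 between -0.25 and -0.11 and Sirt5 between 0.11 and 0.31. The other sign appeared for Sirt1 with the block on title numbers (-0.041) and without the even-count libraries (-0.0078), with -0.027 to 0.13 when 1 library was left out. It appeared for Sirt7 with the same alternatives (0.037 and 0.016; -0.18 to 0.034 with 1 library left out), for Sirt2 with library totals alone (0.0057), and for Sirt6 without T3TG replicate 2 (-0.026; up to 0.28 with 1 library left out). The cause was not tested.

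The number of genes past the threshold over all genes was 10, and depended on most settings. It was 52 with library totals, 107 without a filter, 4 with the replicate block, 2 with the term for title number 6, 0 without the even-count libraries, 105 with DESeq2, 2 with voom, and 0 to 37 with 1 library left out (37 without T3TG replicate 1; 0 without WT replicate 1 or 2 or T3TG replicate 2 or 4). At an unadjusted p under 0.05, 776 genes were counted without the even-count libraries. With the block Sirt3 had -0.14 (SE 0.17). First title numbers 1 and 3 belong only to WT replicates 1 and 3, and to no T3TG library. Under the block those libraries therefore do not inform the group estimate of any gene. Libraries with the same first title number gave correlations of deviations of 0.12, -0.054, 0.16 and 0.073, and those with unlike numbers -0.189 to 0.085. These values do not settle whether the number is a pairing. The labels do not say what it means, and it is not taken as one. Title number 6 belongs to T3TG replicates 2, 3 and 4 and to WT replicate 4, so a term for it is partly confounded with group. Precision rests on 4 libraries a group, and counting alone gave coefficients of variation of 2.14% (Sirt2) to 10.8% (Sirt6) in the 6 libraries without even counts.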
